A study of Arabidopsis thaliana with 4 samples.

Results

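The phytochrome-interacting factor genes of Arabidopsis thaliana, PIF1 (also PIL5), PIF3, PIF4, PIF5 (also PIL6), PIF6 (also PIL2) and PIF7, and their relative PIL1 were examined in a chromatin immunoprecipitation sequencing (ChIP-seq) list of TCP4 binding. The 7 genes were chosen by name, out of 27444 protein-coding nuclear genes, with earlier results of these data known. Every listed summit inside a gene or within 6000 bp of it was taken. The study looked for potential targets of TCP4 in seedlings, and its title sets PIF3 against a module of TCP4 and the SAUR16 and SAUR50 genes. Its 4 libraries were 2 of seedlings that overexpress TCP4, under the label mTCP4, and 2 of wild type, under the label Col, in each case a ChIP with an anti-Myc antibody and an input. All seedlings had been stratified for 3 days at 4 °C, given 3 to 4 h of white light and kept in darkness for 4 days. The sources used here do not give the promoter that drives TCP4 in that line, its tag or the number of lines. Each group had 1 library, so no value below has a replicate error and no test of the genotypes with replicates was possible.

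PIF proteins are basic helix-loop-helix (bHLH) transcription factors. Several of them accumulate in darkness and keep the seedling in its dark form, with a long hypocotyl and closed cotyledons. Active phytochrome binds PIF proteins in the light and brings about the phosphorylation and degradation of several of them. TCP4 is a CIN-type TCP transcription factor, of the group that promotes differentiation and restrains cell proliferation in leaves and cotyledons. The list records where chromatin was recovered with the anti-Myc antibody and not how much of any PIF transcript was made.

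All 7 genes had at least 1 summit inside or within 6000 bp, where 48.4% of all protein-coding genes had one. The 7 genes held 20 distinct summits in 15 numbered peaks, of 7470 summits in 6220 numbered peaks in the whole list. A summit is the position of highest coverage within a peak, and it is described by 3 values of the authors' peak list. Pileup is the scaled number of fragments over the summit in the mTCP4 library, and fold is the ratio of that pileup to the control level there, which was recovered from both. The list is labelled mTCP4 against Col, and the control level is taken here as its Col side. The lowest control level of the list was 12.9, where 5 of the 20 summits (25.0%) and 18.3% of all summits stood. This level is 1 value shared by 1368 summits, taken as genome-wide and not as control coverage measured at each summit. A fold there is a ratio to that shared level. The third value, q, is the adjusted p-value of the peak caller, and its −log10 ran from 7.70 to 73.6 at the 20 summits, with a lowest value of 3.46 in the whole list. Bounds in parentheses after a fold are exact 95% Poisson intervals of the fragment number, for a fixed control level. Only counting error enters them, and how another batch of seedlings would vary is not known.

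With the closer limit of 1000 bp, 5 of the 7 genes had a summit inside or near them, PIF3, PIF4, PIF5, PIF6 and PIF7, where 19.7% of all protein-coding genes had one. PIF1 and PIL1 had their nearest summits 1504 bp and 1165 bp away. The number of summits within 6000 bp differed among the genes, with 5 at PIF4, 4 each at PIF1, PIF3 and PIF5, and 1 each at PIF6, PIF7 and PIL1. These summits fell in 4 numbered peaks at PIF4, 3 each at PIF3 and PIF5, and 2 at PIF1. Of all protein-coding genes, 2.76% had 5 or more summits within this distance and 6.21% had 4 or more. Both shares count summits and not numbered peaks. Genes of a chromosome neighbourhood share such summits, so these counts describe the surroundings of a gene and not the gene alone.

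**Figure D1:**
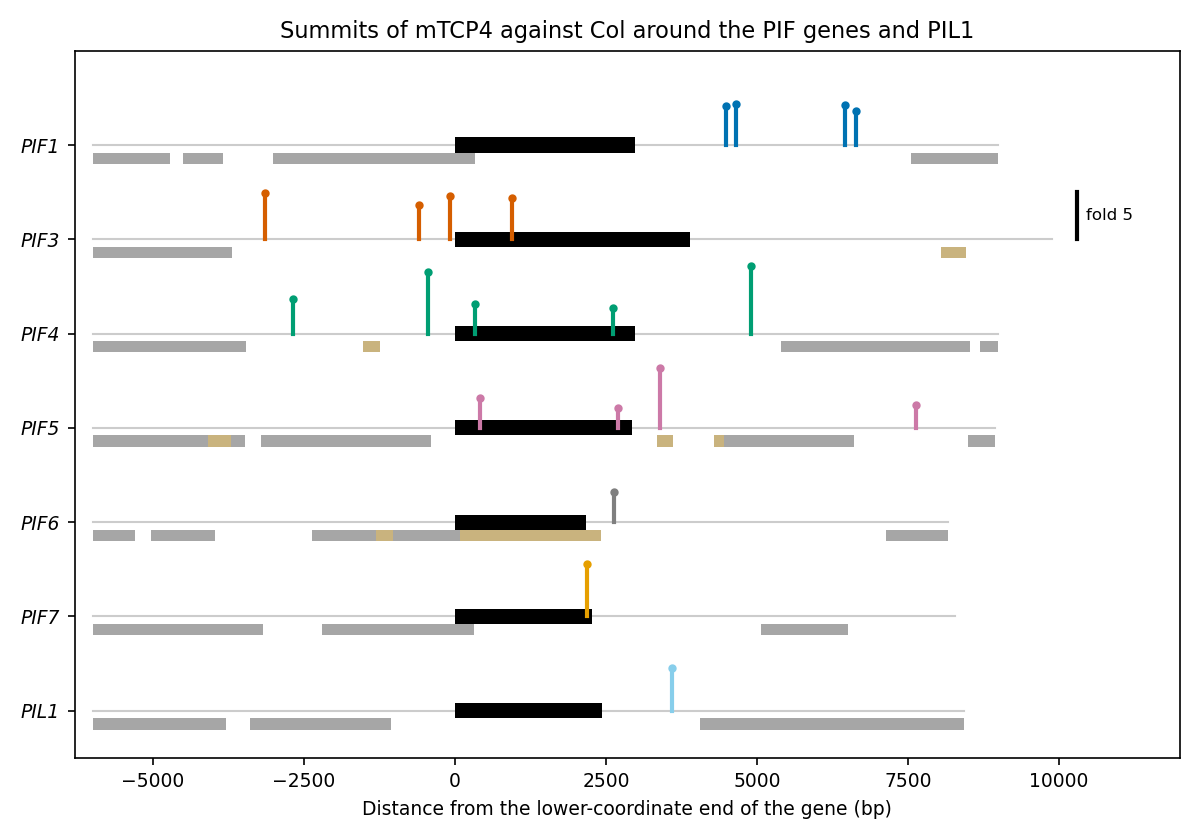
Positions of the 20 summits along each gene, as distance in bp from the lower-coordinate end of the gene. Black bars are the PIF genes and PIL1, grey bars other protein-coding genes and tan bars long non-coding RNA genes. Coloured stems stand at the summits, with their height proportional to the deposited fold, from 2.14 to 7.22. PIF4 has 5 stems, PIF1, PIF3 and PIF5 have 4 each, and PIF6, PIF7 and PIL1 have 1 each.

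PIF3 (AT1G09530, chromosome 1) is the member that the series title names, and it promotes hypocotyl growth and the apical hook in darkness. Its summits formed a row from outside the lower-coordinate end into the gene. The outermost, at position 3072620 of build TAIR10, lay 3148 bp outside and had the highest pileup of the row, 135.6 over a control level of 27.0, for a fold of 4.88 (4.20 to 5.63). The others were lower in pileup but close to it in fold.

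At position 3075163, 605 bp outside PIF3, a pileup of 50.1 stood over a control level of 13.0, for a fold of 3.65 (2.85 to 4.61). At position 3075685, 83 bp outside, a pileup of 101.0 stood over 21.0, for a fold of 4.63 (3.90 to 5.47). The summits at 3075163 and 3075685 belonged to the same numbered peak. The summit inside the gene, at 3076704 and 936 bp from the lower-coordinate end, had a pileup of 87.0 over 19.0, for a fold of 4.40 (3.65 to 5.26). All 6 pairs of these intervals overlapped, so the row was not separated in fold beyond counting error. Pileup and control level rose and fell together along the row. The outermost summit was 546 bp from AT1G09520 and so nearer to that gene than to PIF3. The gap of 6446 bp on the other side of PIF3, up to MYB61, held no summit.

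PIF4 (AT2G43010, chromosome 2), which promotes elongation in shade and at warm temperature, had 5 summits on both sides of and inside the gene. The highest fold near any of the 7 genes, 7.22 (6.06 to 8.53), was at position 17891009. There a pileup of 99.5 stood over the shared lowest control level of the list, 12.9. This summit lay 1922 bp outside the higher-coordinate end, and PAO2, a polyamine oxidase gene, was nearer to it at 494 bp. A summit of like fold lay at the other end, 452 bp outside PIF4 at position 17885649, with a pileup of 117.9 over 17.2 and a fold of 6.53 (5.57 to 7.62). These 2 intervals overlapped.

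The remaining summits of PIF4 were lower. Inside the gene, those at 17886424 and 17888714 were 323 bp and 373 bp from the lower and the higher-coordinate end. Their pileups were 71.5 and 78.8 over control levels of 22.0 and 28.0, for folds of 3.15 (2.56 to 3.83) and 2.75 (2.26 to 3.32). The summit at 17886424 belonged to the same numbered peak as the high summit at 17885649. The outermost, at 17883414, was 2687 bp from PIF4 and 778 bp from NAC042, with a pileup of 50.1 over 12.9 and a fold of 3.67 (2.87 to 4.64). The intervals of both high summits lay above those of all 3 low ones. With the control level taken at every summit as a count that has an error of its own, the intervals of both high summits overlapped those of all 3 low ones.

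PIF5 (AT3G59060, chromosome 3) is close to PIF4 in sequence and acts with it in shade and in darkness. Its main summit, at position 21831302, lay 465 bp outside the higher-coordinate end, with the highest pileup near any of the 7 genes, 167.3 over a control level of 25.6. The fold was 6.33 (5.53 to 7.20), and the position lies inside the long non-coding RNA gene AT3G09185. Another summit of the same numbered peak lay 693 bp away, inside PIF5 at 21830609 and 228 bp from the same end. There the pileup was 99.5 over a control level of 46.0, and the fold was 2.14 (1.80 to 2.53). Only 2.73% of all summits had a lower fold. That control level was higher than at 99.6% of all summits of the list. The interval of the main summit lay above that of its neighbour in the same peak, also with the control level taken as a count.

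Near the other end of PIF5, 406 bp inside at position 21828311, a pileup of 87.7 stood over 26.8, for a fold of 3.19 (2.65 to 3.81). The last summit, at 21835537, was 4700 bp from PIF5 and 869 bp from AT3G59080, with a fold of 2.42 (1.94 to 2.99). PIF4 and PIF5 thus each had a pair of summits inside the gene, near opposite ends, and a higher one 452 bp and 465 bp outside an end. At both genes that higher summit belonged to the same numbered peak as an inside one, so these summits were not all separate peaks. The likeness of PIF4 and PIF5 was not among the planned results. Of all protein-coding genes, 1.26% held 2 or more summits inside. PIF4 and PIF5, at 2987 and 2933 bp, are longer than the median of those genes, 2078 bp, and length was not allowed for. The nearest protein-coding neighbour on one side was a polyamine oxidase gene for both, PAO2 beside PIF4 and PAO3 beside PIF5. The gap of 2415 bp between PIF4 and PAO2 held the summit of fold 7.22, and the gap of 395 bp between PIF5 and PAO3 held none.

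PIF7 (AT5G61270, chromosome 5), a main factor of the shade response, had a single summit, and it lay within the gene. At position 24640674, 91 bp inside the higher-coordinate end, a pileup of 120.8 stood over a control level of 21.0, for a fold of 5.54 (4.73 to 6.45). No other summit was listed inside or within 6000 bp of PIF7. Of all summits of the list, 84.1% had a lower fold and 90.6% a lower pileup.

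PIF1 (AT2G20180, chromosome 2) holds back seed germination and, in dark-grown seedlings, chlorophyll synthesis. It had no summit inside it or within 1000 bp, and its 4 summits all lay in the gap of 4569 bp that separates it from CLASP, a gene for a microtubule-associated protein. They came in 2 close pairs, each within a single numbered peak. In the pair nearer to PIF1, at 8708513 and 8708682, the pileups were 56.0 and 59.7 over the lowest control level, 12.9, and the folds were 4.09 (3.24 to 5.11) and 4.36 (3.48 to 5.40). In the other pair, at 8710487 and 8710657, the pileups were 57.5 and 53.1 over control levels of 12.9 and 14.0, and the folds were 4.20 (3.34 to 5.22) and 3.60 (2.83 to 4.52).

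The second pair was 3478 bp and 3648 bp from PIF1 and 1092 bp and 922 bp from CLASP, so CLASP was the nearer gene for it. All 6 pairs of intervals overlapped among the summits near PIF1. The pileups there were modest, with 33.0 to 43.6% of all summits lower, while 54.7 to 69.9% of all summits were lower in fold. The other side of PIF1 had no gap, since the gene overlaps AT2G20170 by 334 bp.

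PIL1 (AT2G46970, chromosome 2) is rapidly induced by shade and restrains PIF activity. Its single summit, at position 19299023, lay 1165 bp outside the higher-coordinate end, with a pileup of 94.3 over a control level of 20.0 and a fold of 4.54 (3.79 to 5.39). ASY3, a gene of the meiotic chromosome axis, was nearer at 469 bp. PIF6 (AT3G62090, chromosome 3), which is linked to seed dormancy, also had 1 summit, 470 bp outside its higher-coordinate end at 22991179. A pileup of 82.5 stood there over 25.0, for a fold of 3.21 (2.65 to 3.86). It lay in the gap of 4976 bp towards IAA30, an Aux/IAA gene, and was nearer to PIF6 than to any other protein-coding gene. Its fold was below the median of the list.

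Ordered by their highest fold within 6000 bp, the genes ran PIF4 (7.22), PIF5 (6.33), PIF7 (5.54), PIF3 (4.88), PIL1 (4.54), PIF1 (4.36) and PIF6 (3.21). These highest folds were taken from 1 to 5 summits per gene, and the intervals make no allowance for that choice. At PIF4, PIF3 and PIL1 the summit of highest fold was nearer to another gene, PAO2, AT1G09520 and ASY3. The interval of each gene overlapped that of the next in this order at all 6 steps. Of the 21 pairs of genes, 9 had intervals that did not overlap. They were PIF4 against PIF3, PIL1, PIF1 and PIF6, PIF5 against PIL1, PIF1 and PIF6, and both PIF7 and PIF3 against PIF6. When the control level was taken at every summit as a count with its own error, 0 of these 9 pairs were left. This choice was made after the values were seen, and it gives an error also to the shared lowest control level. Some other control levels, such as 25.6 at the main summit of PIF5, are not whole numbers, so treating them as counts is an assumption. The separation of the 9 pairs thus depends on how the control level is treated. Without that error at the lowest control level, where the highest summits of PIF4 and PIF1 stand and keep their intervals, 2 pairs were left, PIF4 against PIF1 and PIF4 against PIF6.

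**Figure D2:**
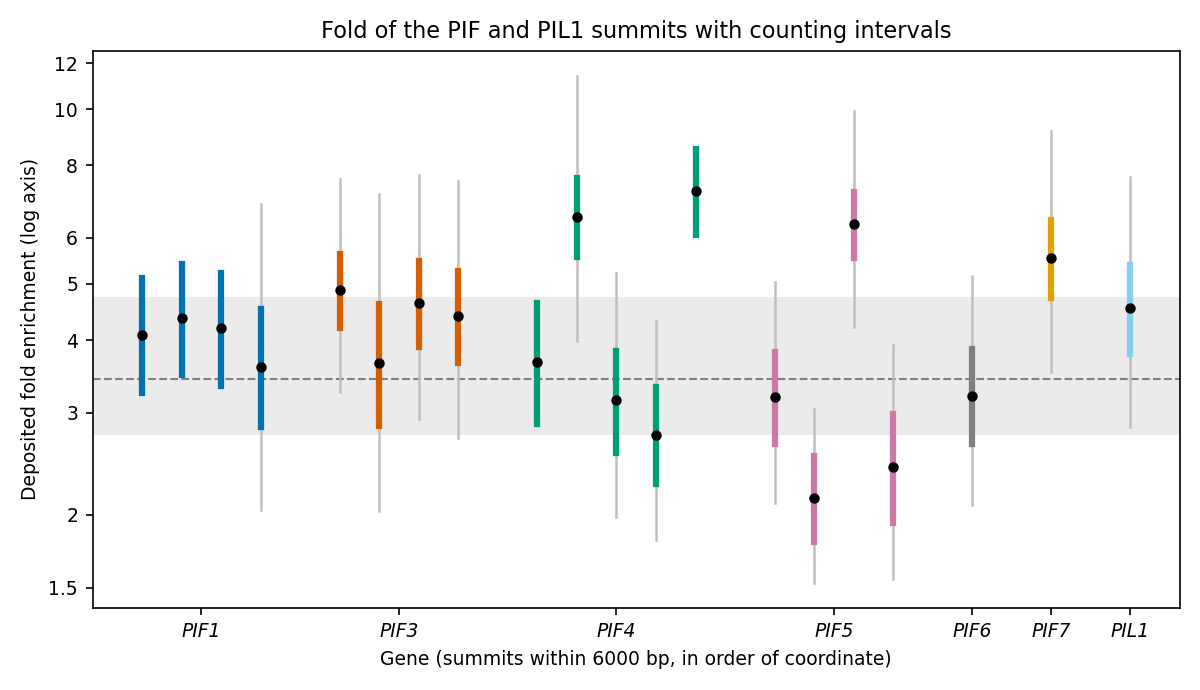
Deposited fold of the 20 summits on a log axis, grouped by gene and in order of coordinate. Points are the folds, thick bars the 95% Poisson intervals with the control level fixed, and thin grey bars the intervals with the control level taken as a count as well, which are left out at the lowest control level. The grey band runs between the quartiles of all 7470 summits, 2.76 and 4.72, and the dashed line is their median, 3.43. At PIF4 and PIF5 summits above 6 and summits below 4 stand side by side, and at PIF1 and PIF3 the folds lie between 3.60 and 4.88.

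As a share of protein-coding genes, 5.10% had a highest fold within 6000 bp at or above that of PIF4, 8.46% that of PIF5 and 12.4% that of PIF7. The share was 16.9% for PIF3, 19.7% for PIL1, 21.2% for PIF1 and 34.3% for PIF6. The PIF genes and PIL1 were therefore not at the top of the list. The summit of fold 7.22 near PIF4 ranked 452 among the 7470 summits, and that of PIF6 ranked 4204.

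The 20 summits had a median fold of 4.15, against 3.43 for all summits of the list. Of the 20, 14 were above that median of all summits and 5 were above their upper quartile of 4.72, which by definition holds 25.0% of all summits. The median pileup was 84.7 near the 7 genes, against 63.4 in the whole list, and the median control level was 20.5, against 16.4. Pileup and control level were thus both higher near the PIF genes and PIL1 than in the list as a whole, and the part of the control level in the folds was not tested. The fragment number behind a summit ran from 68 to 227 with a median of 115, against a median of 86 for all summits.

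**Figure D3:**
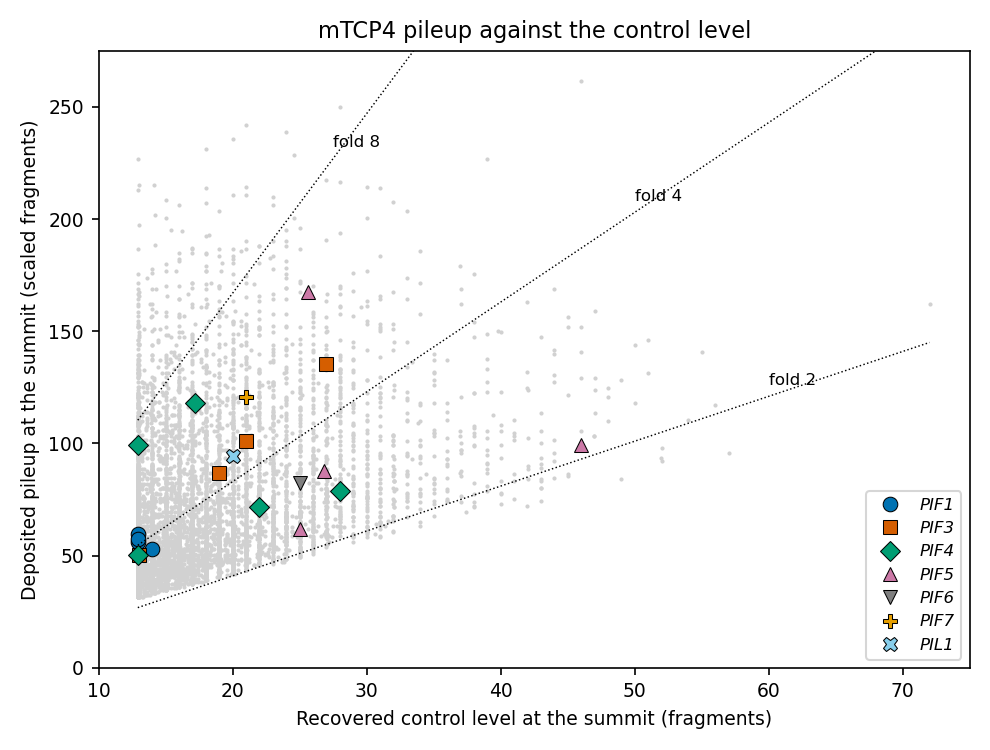
Deposited pileup of the mTCP4 library against the recovered control level for the 20 summits (coloured symbols, by gene) and for all 7470 summits (grey dots). Dotted lines mark equal fold. The main summit of PIF5 is highest in pileup at 167.3, its neighbour inside the gene is farthest right at a control level of 46.0, and the PIF1 summits lie at the left edge, at 12.9 to 14.0.

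By position, 6 of the 20 summits (30.0%) lay inside the PIF genes, against 29.6% of all summits inside protein-coding genes. The PIF genes with such a summit were PIF3, PIF4, PIF5 and PIF7, while 6.75% of all protein-coding genes had a summit inside. The PIF genes and PIL1 were 2163 to 3887 bp long, against a median of 2078 bp for all protein-coding genes, and length was not allowed for. Another 5 summits lay within 1000 bp outside a gene, and 9 lay farther out. Summits inside the genes had a median fold of 3.17 and those outside 4.28, against 3.26 and 3.50 for all summits inside and outside protein-coding genes. The control level had a median of 24.4 inside the PIF genes and 15.6 outside, with median pileups of 87.3 and 72.2, and its part in the difference was not tested. Of the 20 summits, 13 had one of the PIF genes as their nearest protein-coding gene. The other 7 were nearer to AT1G09520, NAC042, PAO2, AT3G59080, ASY3 or CLASP, the last for 2 of them.

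Genes that work with PIFs were then counted in 4 lists of named genes, chosen with earlier results of these data known. Of the 52 names, 48 were matched, and 25 of these (52.1%) had a summit inside or within 1000 bp, against 19.7% of all protein-coding genes. The median of their highest folds was 3.57, against 3.60 for all protein-coding genes with a summit at that distance. Summits were thus more frequent at the listed genes, with folds near the median of all such genes. The 5 PIF genes with a summit at that distance had a median of 5.54.

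Among related bHLH and HLH proteins, 5 of 9 genes had a summit inside or within 1000 bp. PAR1, a helix-loop-helix protein that holds PIFs off DNA, had the highest fold at 4.28 (3.51 to 5.16). UNE10 (3.75, inside the gene) and ALC (3.20, 113 bp outside) followed. HFR1, which binds PIFs and blocks them, had a fold of 2.32 at 14 bp outside, and PAR2 had 2.30 inside the gene. SPT, HEC1, HEC2 and HEC3 had no summit within 1000 bp.

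Among photoreceptors the count was 3 of 7. PHYA, the phytochrome that acts first when dark-grown seedlings meet light, had a summit inside the gene with a fold of 3.28 (2.78 to 3.84). CRY2, a blue light receptor, had a fold of 2.24 inside the gene, and PHYB, the main red light receptor, 2.22 at 903 bp. All 3 folds were below the median of all summits. PHYC, PHYD, PHYE and CRY1 had no summit within 1000 bp.

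Proteins that degrade, modify or hold back PIFs had 10 of 19 matched genes with a summit. GAI, a DELLA protein that sequesters PIFs, had a fold of 7.96 (7.03 to 8.99) at 966 bp, beside a highest fold of 6.53 (5.57 to 7.62) for the PIF genes at that distance, at PIF4, and these 2 intervals overlapped. LRB1, part of a ubiquitin ligase that acts on PIF3 and PHYB, had a fold of 5.88 (5.02 to 6.85). SPA4, a partner of the COP1 ubiquitin ligase, had 5.05 (4.20 to 6.02), and LRB2 had 4.68 (3.87 to 5.62). COP1 itself had no summit within 6000 bp.

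Of genes known as PIF targets 7 of 13 had a summit. The highest fold, 7.87 (6.97 to 8.86), was inside CKX5, a cytokinin oxidase gene. YUC2, an auxin synthesis gene, had 4.64 (3.83 to 5.57), IAA19, an Aux/IAA repressor, had 4.63 (3.99 to 5.33), and the auxin synthesis gene YUC8 had 3.57 (2.77 to 4.52). SOM and PORC, known from work on PIF1, had no summit within 6000 bp. The gene of TCP4 itself (AT3G15030) had 1 summit within 6000 bp, 795 bp outside it and inside the neighbouring gene AT3G15040. Its fold was 4.82 (3.99 to 5.77), and the interval overlapped that of the highest summit of PIF3.

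**Figure D4:**
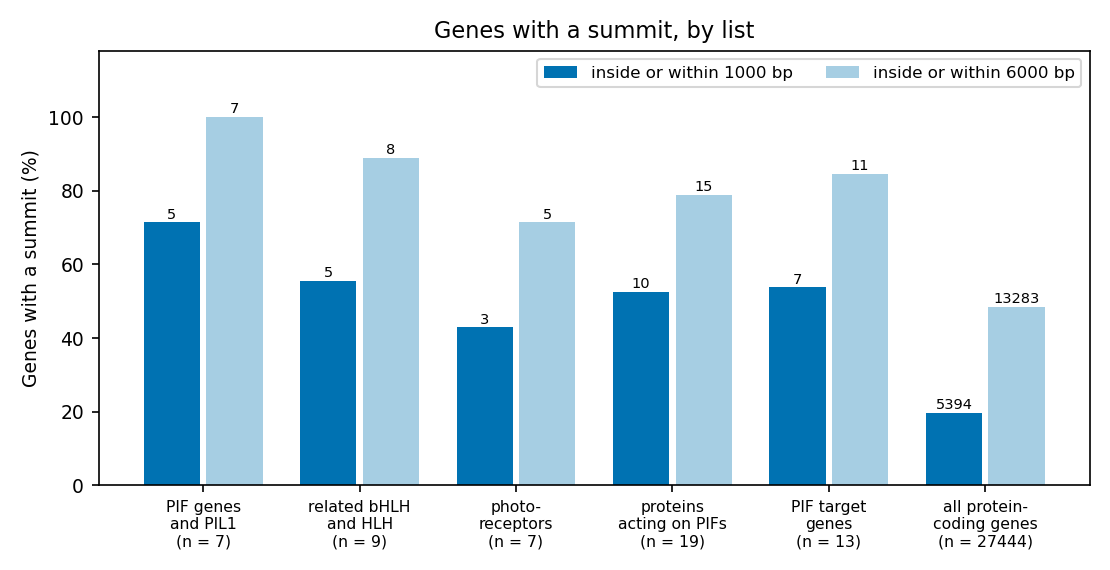
Percentage of genes with a summit inside or within 1000 bp (dark bars) and within 6000 bp (light bars) in the PIF genes with PIL1, the 4 lists of named genes and all protein-coding genes. Numbers above the bars are gene counts. The PIF genes and PIL1 stand at 71.4% and 100%, the lists at 42.9 to 55.6% and 71.4 to 88.9%, and all protein-coding genes at 19.7% and 48.4%.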

How the data were processed

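The data were 1 deposited peak list, mTCP4 against Col. Bowtie 0.12.9, MACS2 2.1.1 and build TAIR10 are named in the submitters' processing notes. The sources used here do not give the threshold or say whether inputs entered the calls. Per the file headers, the list gives positions, the pileup (a coverage signal), the fold (a ratio), and −log10 p-values and q-values. Listed intervals ran 5000 bp to each side of 7469 of the 7470 summits, so the summit was taken as the position.

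The control level was recovered as (pileup + 1) / fold − 1, with a pseudocount of 1. It gave back the deposited p-values by a Poisson distribution, within 0.05 on the log10 scale, for 100% of summits. All pileups were whole multiples of 0.737 within 0.01, taken as 1 fragment each. Library totals were not analysed here.

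Gene names, ends and classes came from the RefSeq table of TAIR10.1, which gives no strand, so upstream and downstream were not told apart. With all summits displaced in steps of 100 bp, to at most 1000 bp either way, the share inside genes was lowest within 200 bp of their listed place on all 5 chromosomes. No sequence was used here, so the motif search and protein comparison that had been planned were not run.

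All 7 genes are named whatever their values, with every summit within 6000 bp, genes nearer to such a summit, and up to 4 genes of each list with the highest fold. Genes named as having no summit, and PAR2, were added after the values were seen. Members and lists were chosen with earlier results of these data known. The names PPK1 to PPK4 were left unmatched, since the table's PPK1 is another kinase. Counting and the intervals for a fixed control level were tested on simulated data. The intervals with the control level taken as a count were not. Python 3.11.15, pandas 2.3.3 and scipy 1.17.1 were used.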

Additional observations from a re-analysis of the deposited data

How the results depend on the processing

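No paired analysis was possible because each group had 1 library. In 72 of 86 alternative values, counts stayed within 1.5 times the reported ones, folds within their counting intervals, and places in the order as they were. The highest folds stayed within their intervals in all 47 cases, PIF4 at 6.53 to 7.70. Many of these cases were largely fixed in advance. The upper 50% by fold and the summit of highest fold in each numbered peak both keep high folds. A q limit of 1e-05 removed none of the 20 summits, whose lowest −log10 q was 7.70. Leaving out the pseudocount keeps the same summits. With the lowest control level alone, only PIF1 and PIF4 gave a fold, and their highest summits stand at that level. With summits of the lowest control level alone (1368 of them), 2 of 7 genes (PIF1 and PIF4) and 5 summits were left within 6000 bp (where 12.1% of all protein-coding genes kept a summit), 0 of 7 genes within 1000 bp (3.17% of all protein-coding genes) and 5 of 48 pathway genes. With the upper 50% of summits by fold, 13 of 48 pathway genes were left, against 10.7% of all genes. Taking nearest genes only left 13 of the 20 summits, and a distance of 1000 bp left 11. Ordered by pileup in place of fold, PIF5 was in place 1, PIF3 in place 2, PIF4 in place 4, PIF6 in place 6 and PIF1 in place 7. With the control level taken as a count at every summit, 0 pairs of genes had separate intervals, against 9. The number was 2 without that error at the lowest control level, which leaves the intervals of PIF4 and PIF1 as they were. Taking the lowest control level, the upper 50% by fold, nearest genes or a shorter distance removes summits by construction. Giving the control level an error widens the intervals by construction. The cause of the changes in the order by pileup was not tested. Some alternatives left a gene without a summit and gave no fold, PIF6 with the upper 50%, PIL1 with nearest genes, and PIF1 and PIL1 at 1000 bp.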

Other observations

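The 2 close pairs of summits beyond PIF1, each within a single numbered peak, had almost the same spacing, 169 bp and 170 bp. In the whole list, 512 of 7465 neighbouring summits on a chromosome (6.86%) were within 200 bp of each other, and 145 were 160 to 180 bp apart. The smallest spacing was 3 bp. At PIF4, the 4 spacings between neighbouring summits were 2235, 775, 2290 and 2295 bp. Those at PIF5 were 2298, 693 and 4235 bp, and those at PIF3 were 2543, 522 and 1019 bp. The share of all neighbouring summits with like spacings is not given here, so no regular arrangement can be read from these values.

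Several of the listed genes had their highest fold beyond 1000 bp. Within 6000 bp the highest fold was 11.0 for RGL1, a DELLA gene, 9.49 for YUC2 and 8.69 for HFR1. It was 8.54 for PHYC, 8.49 for HEC3 and 7.86 for RGL2, beside 7.22 for PIF4. These genes were picked out after their values were seen.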
